A study of Homo sapiens with 6 samples.

Results

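OLR1 and 9 other genes of scavenger or lipoprotein receptors, SCARB1, SCARB2, CD36, MSR1, SCARA3, COLEC12, LRP1, STAB1 and VLDLR, were followed through RNA-seq of cultures labelled HepG2, a human liver cancer cell line. They were found by gene symbol, and all 10 were among the 40205 genes of the count table. The set was chosen by receptor family around OLR1, and OLR1 was picked with its lower level in the CLs-treated group already known. The differences between the groups in these 10 genes are therefore given as a description. Test results that cover them are printed, but nothing is read from them. The 3 control libraries (Control-1 to Control-3) came from cells given no liposomes, and the labels name no vehicle. The 3 CLs libraries (CLs-1 to CLs-3) came from cells exposed for 24 h to cationic liposomes (CLs), made from the cationic lipid DOTAP, cholesterol and a PEG-conjugated lipid. The dose was 120 μM by the sample labels and 120 μg/ml by the discussion of the study. Both groups had been seeded 24 h earlier in medium with serum, which itself brings lipoproteins to the cells. The labels do not say whether replicates were separate cultures, so the errors (SD, and SE for the standard error of a log2 fold change) cover the spread between these samples, which may be technical.

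Scavenger receptors bind modified lipoproteins, dead cells, microbes and many polyanionic ligands, and most carry bound cargo into the cell. OLR1 (LOX-1) is a C-type lectin that binds oxidised LDL, best known from endothelium and macrophages. SCARB1 takes up cholesteryl ester from HDL in liver and steroid-producing cells, CD36 takes up fatty acids and oxidised lipoproteins, and SCARB2 (LIMP-2) is their relative in the lysosome membrane. MSR1, SCARA3 and COLEC12 belong to the class A family with collagen-like stalks, and STAB1 is a large scavenger receptor of sinusoidal endothelium and macrophages. LRP1 and VLDLR belong to the LDL receptor family and take up apolipoprotein E-rich particles among other ligands.

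Values of single samples are given in the order of replicate numbers 1 to 3. Between 11418527 and 13998946 reads per library were counted on genes. The hepatocyte marker list went against the label of the cells. Of its 15 genes, none had enough reads to be tested, and together they held 8 to 23 counts in each control library and 167, 8 and 15 counts after CLs. AFP, APOH, TF, AHSG and FABP1, which encode alpha-fetoprotein, other secreted liver proteins and a liver fatty acid-binding protein, had at most 3 counts in any library, which is the limit that a count of 0 allows. Albumin (ALB), given here although the rule for named genes did not pick it, had 0 counts in 5 libraries and 8 in CLs-1. APOA1 had the most reads of the list, 51 in CLs-1 and no more than 2 elsewhere. The receptor levels below therefore describe cultures in which the defining markers of hepatocytes were at or near 0, and no other cell type was assigned to them.

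CLs-1 stood apart from the other libraries by reads of marker genes that were mostly at or near the floor elsewhere. Erythroid markers, led by HBB, summed to 477 counts in CLs-1 and to 0 to 4 counts in each other library. Adrenal cortex markers, led by STAR, summed to 482 counts in CLs-1 and to 11 to 32 counts elsewhere. Most of the counts elsewhere were of CYP11A1, which had 11 to 29 in each of those libraries and 151 in CLs-1. In the fibroblast list the sums were 730.0 to 1097.6 CPM in the control group and 807.7 to 954.1 CPM in the CLs-treated group. They came mostly from COL3A1, and COL1A1 and PDGFRB also had enough reads to be tested. Of the 8 genes, 4 (COL1A2, LUM, PDGFRA and THY1) had at most 3 counts in every library but CLs-1. COL1A2 had 1044 counts in CLs-1 against 0 to 2 in each of the others. DCN, with 2 to 5 counts outside CLs-1, was also near the floor. Macrophage markers, led by CSF1R, summed to 13 to 19 counts in the control libraries and 9 to 52 in the CLs libraries. Endothelial markers, led by ERG, summed to 42 to 94 and 35 to 57 counts. CD36, STAB1 and 4 other genes of the lists below (MARCO, APOE, PLAU and RELN, the last with 3 counts in all) had most of their reads in CLs-1, and values that rest on it are given without it.

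**Figure D1:**
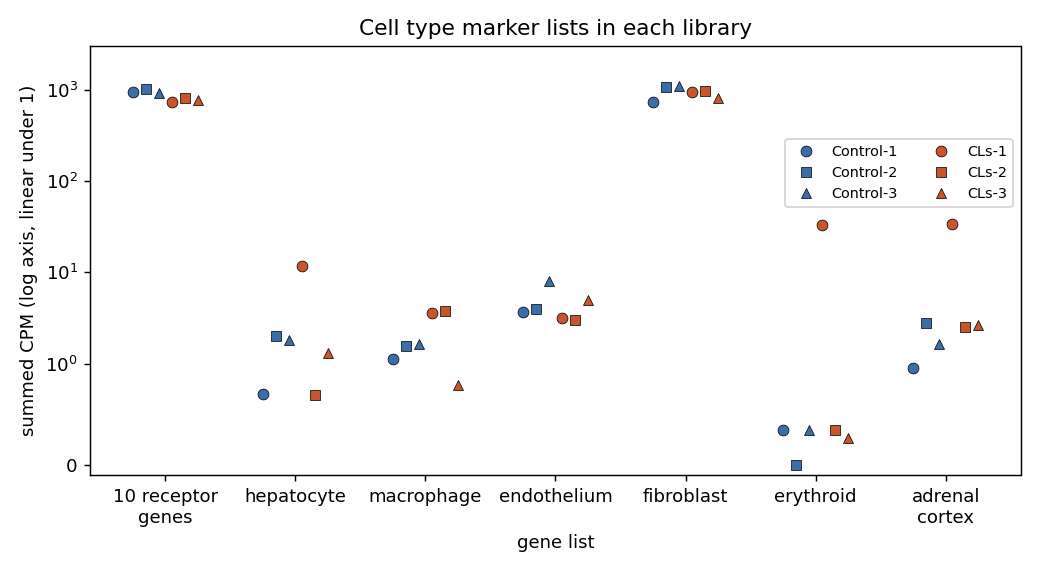
Summed CPM of each cell type marker list and of the 10 receptor genes in every library, on an axis that is logarithmic above 1 and linear below; circles, squares and triangles are replicates 1, 2 and 3, blue for control and orange for CLs. The hepatocyte, erythroid and adrenal cortex sums are highest in CLs-1, and the 10 receptor genes sum to 730.3 to 1005.8 CPM across the 6 libraries.

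Of the 10 receptor genes, 6 had enough reads to be tested after edgeR's filter on low counts: OLR1, SCARB1, SCARB2, SCARA3, LRP1 and VLDLR. The other 4 were at or near the floor. MSR1 and COLEC12 had 0 counts in all 6 libraries, and 3 counts, the most that a count of 0 allows, correspond to 0.214 to 0.263 CPM by library. CPM is the count scaled to a common library size with TMM factors, the floor is relative to unscaled totals, and it covers counting error only. CD36 had 4, 0 and 0 counts in the controls and 9, 1 and 0 counts after CLs. STAB1 had 5 counts in CLs-1 and 0 in every other library. No difference between the groups was detectable for these 4 genes at this depth. The receptors most tied to macrophages and sinusoidal endothelium were thus not detectable or nearly so, while OLR1 was well covered, with 328 to 1543 counts per library.

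Levels were compared between genes per kilobase of exon, with exon lengths from GENCODE release 29. In the control group SCARB1 stood first at 98.3 ± 1.84 CPM per kilobase (SD, n = 3), followed by SCARA3 at 66.1 ± 5.61 and OLR1 at 47.8 ± 7.13. Far below came SCARB2 at 8.30 ± 0.557, LRP1 at 6.22 ± 0.974 and VLDLR at 1.90 ± 0.129. The order was the same in the CLs-treated group, and it was the same in both groups when the length of the longest coding transcript was used instead. By exon length, the sample ranges of neighbours in this order did not overlap in either group. OLR1 was at 18.5 ± 6.24 CPM per kilobase in the CLs-treated group, with a lowest sample of 11.6, and SCARB2 at 9.66 ± 1.31, with a highest sample of 11.2. By the longest coding transcript these 2 genes did overlap in the CLs-treated group, with OLR1 at 11.7 to 24.0 and SCARB2 at 11.8 to 15.1 CPM per kilobase, so their order there depends on the length used. Among all 15047 tested genes, not corrected for length, the mean CPM of OLR1 stood at percentile 87.8 in the control group and 68.4 in the CLs-treated group. SCARB1 stood at percentile 97.5 and 96.9 on the same scale.

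**Figure D2:**
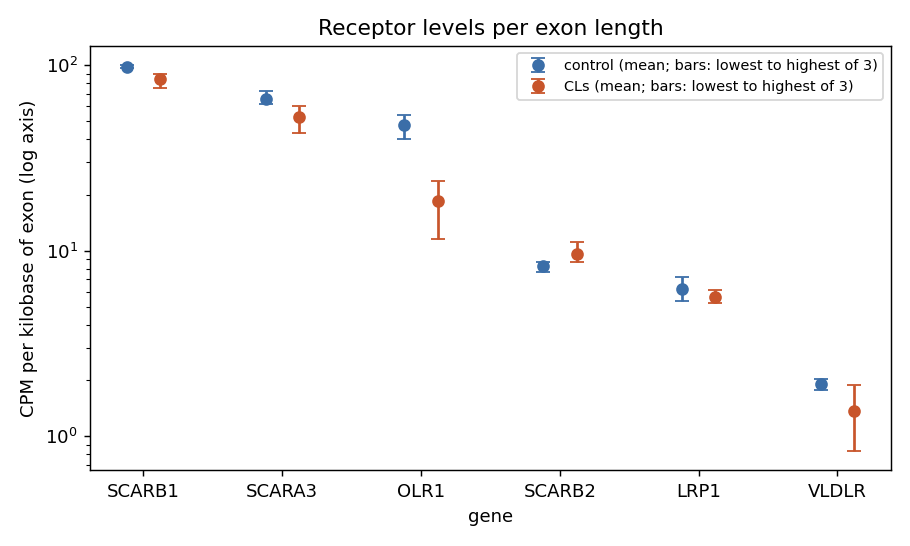
CPM per kilobase of exon, on a log axis, of the 6 receptor genes with enough reads; points are group means and bars run from the lowest to the highest of 3 samples. The order from SCARB1 down to VLDLR is the same in both groups, and OLR1 moves from near SCARA3, at 47.8, to nearer SCARB2, at 18.5.

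OLR1 had 1543, 1422 and 1158 counts in the control libraries and 852, 576 and 328 counts after CLs. These were 134.0, 122.8 and 99.3 CPM in the control group and 59.0, 49.8 and 28.7 CPM in the CLs-treated group. All CLs-treated samples lay below all controls, and CLs-3 was the lowest of the 6. The means were 118.7 ± 17.7 and 45.8 ± 15.5 CPM (SD, n = 3 per group). The log2 fold change was -1.37 (SE 0.23), or 0.387 times the control level. Without CLs-1 the log2 fold change was -1.60 and without CLs-3 it was -1.12. In bulk RNA, fewer cells that express a gene and less of its RNA per cell cannot be told apart.

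The level of OLR1 relative to the other receptors can be read within each library, without scaling between libraries. Of the reads on the 10 receptor genes, OLR1 took 14.2% (95% Wilson interval 13.5 to 14.8), 12.2% (11.6 to 12.8) and 10.9% (10.3 to 11.5) in the controls. The share was 8.08% (7.57 to 8.61), 6.19% (5.71 to 6.69) and 3.78% (3.4 to 4.2) after CLs. These intervals cover counting error only, and those of the CLs-treated samples did not touch those of the controls. Set against SCARB1 in the same library, there were 34.1, 30.7 and 25.8 reads of OLR1 per 100 reads of SCARB1 in the control libraries. There were 19.5, 14.3 and 7.98 after CLs.

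**Figure D3:**
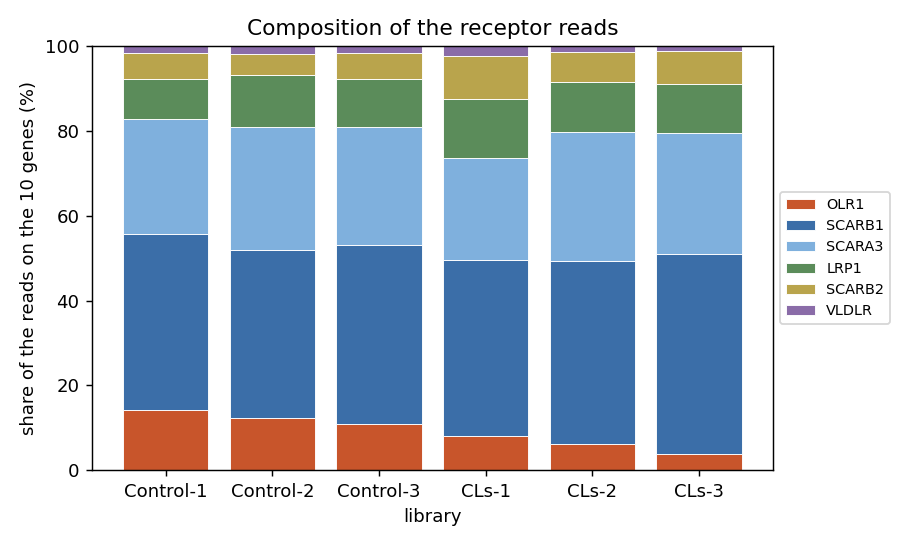
Share of the reads on the 10 receptor genes that each gene took in every library, in percent; CD36 and STAB1 are too few to see, and MSR1 and COLEC12 had none. The OLR1 share runs from 10.9% to 14.2% in the control libraries and from 3.78% to 8.08% in the CLs libraries. The SCARB1 share lies between 39.7% and 47.3%, and a lower OLR1 share raises those of the other genes.

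OLR1 and VLDLR were also the genes that varied most within the CLs-treated group. The coefficient of variation of OLR1 was 14.9% in the control group and 33.8% in the CLs-treated group, and that of VLDLR was 6.77% and 39.0%. The median over the 9896 tested genes with a mean of at least 10 CPM was 10.7% and 13.8%. In both genes CLs-1 was the highest and CLs-3 the lowest CLs-treated sample, with ratios between them of 2.05 for OLR1 and 2.27 for VLDLR. The other 4 tested receptors had coefficients of 7.75% to 16.6% in the CLs-treated group. With 3 samples per group these coefficients are themselves uncertain, and the difference in spread was not tested.

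**Figure D4:**
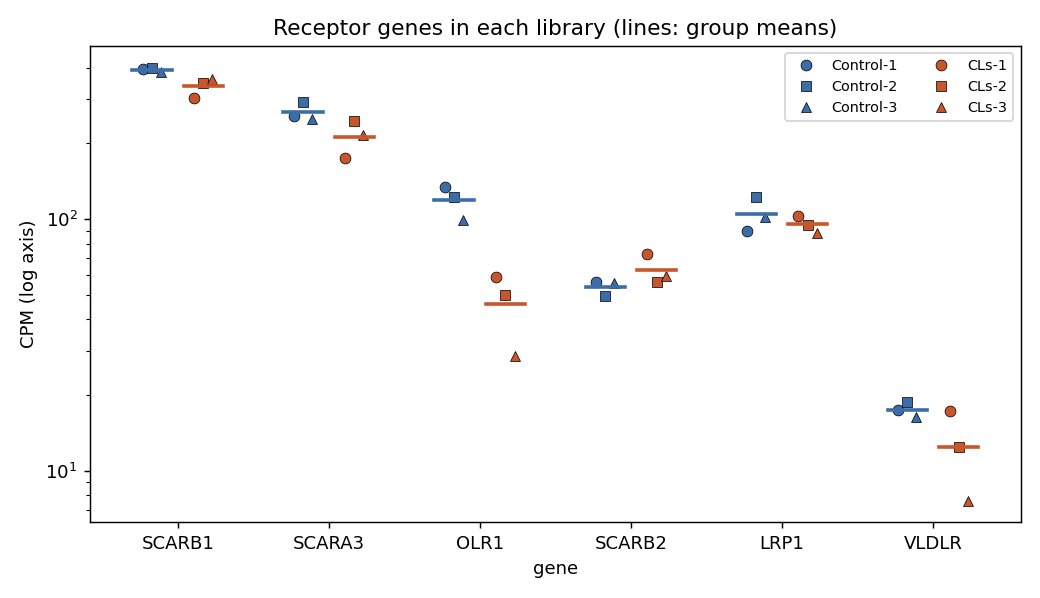
CPM of the 6 tested receptor genes in every library, on a log axis; circles, squares and triangles are replicates 1, 2 and 3, blue for control and orange for CLs, and lines are group means. OLR1 is lower in every CLs-treated sample, at 28.7 to 59.0 CPM, than in every control, at 99.3 to 134.0 CPM, and CLs-3 is also the lowest sample of VLDLR at 7.62 CPM.

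Among the class B receptors, SCARB1 and SCARB2 differed from their controls in opposite directions and by little. SCARB1 was at 392.9, 399.8 and 385.1 CPM in the control libraries and at 302.8, 346.9 and 359.9 CPM after CLs. The CLs-treated samples lay below the controls, and CLs-1 was the lowest. The log2 fold change was -0.22 (SE 0.13), and -0.15 without CLs-1. SCARB2 was at 56.2, 49.7 and 55.8 CPM in the control group and at 72.5, 56.4 and 59.6 CPM in the CLs-treated group. CLs-1 was the highest, and CLs-2 lay only just above the highest control, Control-1. Its log2 fold change was 0.22 (SE 0.14), and 0.10 without CLs-1. Relative to SCARB1 in the same library, SCARB2 had 14.3, 12.4 and 14.5 reads per 100 in the controls and 23.9, 16.2 and 16.6 after CLs. This ratio also holds the lower SCARB1 of the CLs-treated samples, so it separates the groups more than SCARB2 itself does.

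Of the 3 class A genes of the set, SCARA3, a gene linked to the oxidative stress response, had reads. It was at 256.2, 292.4 and 250.8 CPM in the control group and at 174.6, 244.4 and 216.1 CPM in the CLs-treated group. The groups did not overlap, although the gap between CLs-2 and Control-3 was small, and CLs-1 was the lowest. The log2 fold change was -0.33 (SE 0.15), and -0.21 without CLs-1. Its share of the reads on the 10 receptor genes was 27.1%, 29.1% and 27.6% in the controls and 23.9%, 30.4% and 28.4% after CLs. By share the groups overlapped, but the total includes OLR1, whose lower share after CLs raises the shares of the others.

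In the LDL receptor family, LRP1 was at 89.9, 122.4 and 102.4 CPM in the control libraries and at 103.2, 94.8 and 88.4 CPM in the CLs libraries. The groups overlapped, and the log2 fold change was -0.14 (SE 0.15). The span of LRP1 overlaps that of STAT6, on the opposite strand, and whether their exons overlap was not examined. The strand setting of the counting is not given in the sources used here. How reads in such an overlap were counted is therefore not known. VLDLR was at 17.4, 18.7 and 16.3 CPM in the control group and at 17.3, 12.4 and 7.62 CPM after CLs. CLs-1 lay within the range of the controls, and the other CLs-treated samples lay below it. The log2 fold change of VLDLR was -0.48 (SE 0.26), -0.80 without CLs-1 and -0.23 without CLs-3.

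Counted together, 3 of the 6 tested receptors (OLR1, SCARB1 and SCARA3) had all CLs-treated samples below all controls, and SCARB2 had them all above. Over all tested genes, 6.18% lay below in this way and 5.34% above. With edgeR's quasi-likelihood test at an adjusted p under 0.05 together with a fold over 1.5 or under 0.67, none of the 6 was called, and 1, OLR1, had an unadjusted p under 0.05, as did 5.81% of all tested genes. These criteria called 13 of the 15047 genes, or 0.0864%. With DESeq2's Wald test the same criteria called OLR1, beside 0.714% of all genes with an adjusted p. Since OLR1 was picked with this comparison known, nothing is read from these counts. The median log2 fold change of the 6 receptors was -0.28, and that of all tested genes was 0.01.

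The 26 genes listed as related receptors were mostly other scavenger receptors and members of the LDL receptor family. Of the 18 with enough reads, 11 were higher and 7 lower in the CLs-treated group, with a median log2 fold change of 0.08. None of the 18 was called by edgeR's quasi-likelihood test or by DESeq2, against 0.0864% and 0.714% of all genes. In edgeR 1 of them, CD68, a lysosomal glycoprotein of macrophages, had an unadjusted p under 0.05, against 5.81% of all tested genes, and its log2 fold change was 0.43 (SE 0.19, edgeR adjusted p = 0.832). LRP5, a Wnt co-receptor and the most read of the list, was at 188.4 ± 15.6 CPM (SD, n = 3) in the control group and 177.6 ± 23.9 in the CLs-treated group. LRP8, the closest relative of VLDLR and like it a receptor for reelin and apolipoprotein E, was at 115.1 ± 15.1 and 120.9 ± 12.7 CPM. Its log2 fold change of 0.07 had a 95% interval of -0.25 to 0.39. SORL1, a sorting receptor for lipoproteins and amyloid precursor protein, was at 13.4, 13.9 and 13.6 CPM in the controls and at 19.0, 14 and 14.4 CPM after CLs. Its groups did not overlap, but the log2 fold change of 0.21 (SE 0.18, edgeR adjusted p = 0.998) dropped to 0.06 without CLs-1. MEGF10, CD163, MRC1 and GPIHBP1 of this list had 0 counts in all 6 libraries.

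The adaptors, chaperones and ligands of these receptors numbered 18, of which 14 were tested. In the CLs-treated group 6 were higher and 8 lower, with a median log2 fold change of -0.10. None of the 14 was called by edgeR's quasi-likelihood test or by DESeq2, against 0.0864% and 0.714% of all genes. In edgeR 4, among them DAB2, A2M and THBS1, had an unadjusted p under 0.05, against 5.81% of all tested genes. DAB2, an endocytic adaptor that binds the tails of LDL receptor family members, was at 93.9, 108.1 and 99.6 CPM in the control libraries and at 71.8, 76.7 and 64.5 CPM in the CLs libraries. The CLs-treated samples lay below the controls, with a log2 fold change of -0.50 (SE 0.13, edgeR adjusted p = 0.296).

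The adaptor with the most reads, SNX17, which returns LRP1 from endosomes to the surface, was at 137.6 ± 1.81 and 149.9 ± 16.0 CPM. LRPAP1, the chaperone of LRP1 and VLDLR in the endoplasmic reticulum, was at 125.1 ± 14.2 and 138.6 ± 26.0 CPM. In both genes the groups overlapped.

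Of the ligands, A2M (alpha-2-macroglobulin), which LRP1 clears, was at 53.5, 79.4 and 117.7 CPM in the controls and at 42.2, 58.5 and 36.2 CPM in the CLs libraries. Its log2 fold change was -0.87 (SE 0.26, edgeR adjusted p = 0.405), and -0.54 without Control-3. THBS1 (thrombospondin-1), a ligand of CD36 and LRP1, was at 183.8, 154.9 and 105.0 CPM in the controls and at 121.5, 75.4 and 67.1 CPM in the CLs libraries, with a log2 fold change of -0.75 (SE 0.24, edgeR adjusted p = 0.520). In both genes the control samples were widely spread and the groups overlapped. APOE, the apolipoprotein that LRP1 and VLDLR bind, had 75 counts in CLs-1 but only 2 to 4 in each of the others.

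**Figure D5:**
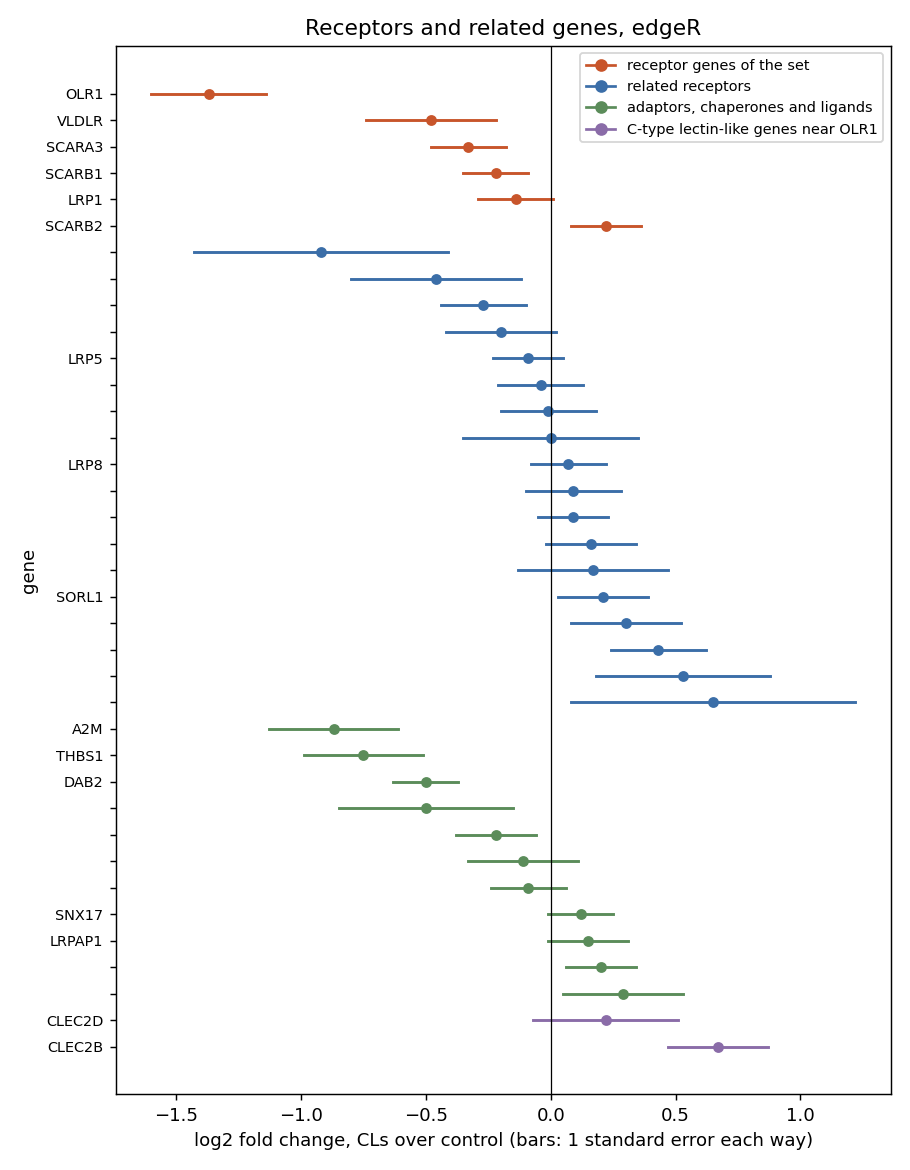
Log2 fold changes of CLs over control from edgeR for the 6 tested receptor genes and 31 tested genes of the related lists. The genes named in the text are labelled, except CD68. Bars are 1 standard error in each direction and the vertical line marks no difference. OLR1, at -1.37, is the lowest value shown, the related receptors lie between -0.92 and 0.65, and A2M and THBS1 lie lowest among the ligands and adaptors.

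OLR1 lies in a cluster of C-type lectin-like genes, next to CLEC7A in the RefSeq annotation of GRCh38.p14, a later build than the GRCh37 of the counts. Of 11 such genes, 9 had at most 3 counts in any library, among them CLEC7A (dectin-1). The other 2 were tested, and neither was called by edgeR's quasi-likelihood test or by DESeq2, against 0.0864% and 0.714% of all genes. In edgeR 1 of them, CLEC2B, had an unadjusted p under 0.05, against 5.81% of all tested genes. CLEC2B was at 14.2, 13.1 and 13.7 CPM in the controls and at 27.7, 20.5 and 17.3 CPM after CLs. It was higher in every CLs-treated sample, the opposite of OLR1, with a log2 fold change of 0.67 (SE 0.20, edgeR adjusted p = 0.381), and 0.46 without CLs-1. CLEC2D was at 10.8 ± 3.09 and 12.5 ± 4.48 CPM (SD, n = 3 in each group). Neither of the 2 tested genes had a lower mean after CLs.

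The span of TMEM52B overlaps that of OLR1 on the opposite strand in GENCODE release 29, and whether their exons overlap was not examined. With the strand setting not given, how reads in such an overlap were counted is not known. It was at 9.38, 12.8 and 9.35 CPM in the controls and at 9.07, 7.52 and 4.38 CPM after CLs, with a log2 fold change of -0.58 (SE 0.27, edgeR adjusted p = 0.863). Its counts came to 7.0%, 10.4% and 9.41% of those of OLR1 in the control libraries and to 15.4%, 15.1% and 15.2% in the CLs libraries. TMEM52B had 50 to 148 counts per library, and what part of the OLR1 counts, if any, lies in the overlap was not tested.

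The 5 genes whose log2 CPM over the 6 libraries was most like that of OLR1, among 9895 others with a mean of at least 10 CPM, were KIF20A, KLHL4, NXN, OLFML1 and IGFBP3, with Pearson's r of 0.988, 0.986, 0.986, 0.984 and 0.982. KIF20A is a mitotic kinesin, NXN a redox protein of the thioredoxin family and IGFBP3 a binding protein of insulin-like growth factors. These points share the 2 groups and their libraries, so the correlations are a description. NXN and OLFML1 did not follow the order of samples of OLR1 throughout, since both were higher in CLs-2 than in CLs-1. IGFBP3 had the widest range, from 701.4 CPM in Control-1 to 141.5 CPM in CLs-3, with a log2 fold change of -1.23. That of KIF20A was -0.24, from 278.5 CPM in Control-1 to 212.0 CPM in CLs-3, so a like pattern did not mean a like size.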

How the data were processed

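Single-end Ion Proton reads of 6 libraries, 3 per group, were mapped by the authors with MapSplice. The submitters' processing notes name HTSeq 0.6.1 and the build hg19 (GRCh37). The authors deposited whole-number counts of reads per gene symbol, without normalization. The annotation, the strand setting and the handling of reads with several matches are not given in the sources used here.

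Groups were compared by edgeR's quasi-likelihood F test (edgeR 4.0.16, R 4.3.3) with group as the single term, following filterByExpr (15047 genes) and TMM scaling, with Benjamini-Hochberg adjustment over these genes. EBSeq, which the study used, was not available, and its fold change and FDR criteria were kept. Standard errors were derived from the F statistic. Depth was 11418527 to 13998946 counts per library. In simulated data, 57.1% of genes changed by a fold of 2 were recovered among 15060 genes, and none of those changed by a fold of 1.5 among 15058. The 200 changed genes were picked at random above a low count limit, with the spread of each gene estimated before filtering. These rates are therefore a rough guide and not the power for a given gene. An exact permutation test of 3 against 3 cannot go below p = 0.10.

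The genes and lists were chosen with earlier results of these data known. By rule, the text names the 10 receptors, the 5 genes most like OLR1 and, of the 3 related lists, genes called, those at 10 CPM or more whose groups do not overlap and the gene with the most reads, apart from results that are not reported here. Other genes (A2M, THBS1 and APOE, called under an alternative, LRP8, LRPAP1, CLEC2D, CD68, those with reads mostly in CLs-1, overlapping or neighbouring genes and those at 0) were added after their values were seen. Of each marker list the most read gene is named, and of the hepatocyte list also those at the floor. Further fibroblast and adrenal cortex markers were named after their values were seen. The alternatives were DESeq2 1.42.0, 2 other ways of scaling, weaker or no filtering, dropping the fold criterion, a replicate block and leaving out each sample. Promoter and protein sequences were not used.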

Additional observations from a re-analysis of the deposited data

How the results depend on the processing

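The 6 tested receptors kept their direction under all 12 alternatives, with ranges of -1.60 to -1.12 for OLR1, -0.27 to -0.15 for SCARB1, 0.10 to 0.29 for SCARB2, -0.45 to -0.21 for SCARA3, -0.24 to -0.01 for LRP1 and -0.80 to -0.23 for VLDLR. OLR1, picked with this comparison known, so that a pass is no evidence, did not meet the criteria in the edgeR fit as reported (adjusted p = 0.0658) or with any 1 sample left out (0.0666 to 0.216), and met them as 1 receptor of the set with DESeq2's Wald test (log2 fold change -1.37), without filtering (-1.36) and under the replicate block (-1.42). The number of genes called over the whole table went from 13 to 104 with DESeq2, 171 with no filter, 68 with the replicate block and 8 with library totals only, and lay between 3 and 7 when 1 sample was left out. Of the adaptors, chaperones and ligands, 3 were called with no filter (APOE, whose reads were in CLs-1, THBS1 and A2M) and 1 with the replicate block (THBS1). The cause of these differences was not tested. The deviations of same-numbered samples correlated at 0.111, 0.099 and 0.305, so the numbers were not taken as a pairing, although every sample correlated best with its own number, a hint from the data and not from the design. Leaving out 1 sample turned the sign of LRP5 (range -0.19 to 0.01) and LRP8 (range -0.03 to 0.16), both near 0. CD36 and STAB1 had too few reads to test at this depth, and MSR1 and COLEC12 had 0 counts in all 6 libraries. Whether more depth would bring reads of these genes was not tested.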

Other observations

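A few further receptor and ligand genes had reads mainly in CLs-1, the library with the most erythroid and adrenal marker reads. MARCO, a class A scavenger receptor of macrophages, had 11 counts there and 0 or 1 elsewhere. PLAU, the urokinase gene and an LRP1 ligand, had 42 there and 4 to 10 elsewhere. These genes were chosen after their values were seen, and the source of the reads was not tested.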
